A study of Bos taurus with 16 samples.

Results

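The interleukins, the CC and CXC chemokines, the tumour necrosis factor (TNF) superfamily and the receptors of these families were examined in bovine blastocysts and bovine embryonic stem cells (bESCs). Genes were taken by symbol, as CXCL, CCL, CXCR, CCR, TNFSF, TNFRSF or IL followed by a digit. Both blastocyst tables listed 158 such genes, of 38959 and 37429 genes in all, and the bESC table listed 154 of 28303. At least 1 read was present for 131, 128 and 114 of them. A level above 0.5 FPKM (fragments per kilobase of gene, scaled to library size) in at least 2 libraries was reached by 49, 47 and 50, and 1 FPKM by 36, 34 and 46. Among the members without a single read in the first blastocyst table were CCL2, CCL20 and CCR9.

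The libraries came from a study of LY2955303 (LY), an inhibitor of the retinoic acid receptor RARγ, in embryo culture. Each blastocyst library was 1 whole day 8 embryo, produced by in vitro fertilization of oocytes from slaughterhouse ovaries and sequenced by SMART-seq. In the first experiment 3 DMSO embryos and 3 LY10 embryos were cultured from the 2-cell stage with vehicle or with 10 µM LY. The second experiment held 2 embryos each of cell2_LY and cell16_LY, given LY from the 2-cell or the 16-cell stage, and 2 of LY_DMSO, taken here as their vehicle control. The concentration of LY in these is not in the labels. The culture media of controls and treated embryos alike were supplemented with LIF, FGF2 and IGF1, and LIF itself signals through gp130. The bESC libraries were 2 of bESC_tifx, labelled only with the TIFX culture medium and described by the study as a DMSO control, and 2 of bESC_LY, numbered 2 and 3 in both groups. bESC_LY cells received 10 µM LY for 3 days. These cells grew on mouse embryonic fibroblast feeders, and reads of mouse origin were not separated here. All libraries are labelled wild type and batch 1. Whether replicates came from separate fertilization runs or cultures is not stated, so p-values measure the spread between these samples.

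Cytokines are secreted or membrane-bound ligands that act on receptor chains at the cell surface. Interleukin receptors of the gp130 (IL6ST) and common γ chain (IL2RG) classes signal through JAK kinases and STAT factors, and IL1, IL18, IL17 and TNF family receptors lead largely to NF-κB. Chemokine receptors are G protein-coupled and steer cell movement. Preimplantation embryos transcribe some of these genes too, and IL6 has been used as a supplement of bovine embryo culture.

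Depth was 7905768 to 17343140 reads on genes per blastocyst and 29055323 to 31230432 per bESC library. A member with 0 reads in a library is given a limit of 3 reads, at most 4.09 normalized counts in the first blastocyst table, and this limit covers counting error only. Leukocyte markers were near 0 in blastocysts. Their summed level was 2.49 to 12.0 FPKM over 10 genes, 2 to 6 of the 10 had no read in a given embryo, and PTPRC, the pan-leukocyte antigen CD45, had reads in 3 of 12 embryos, at 0.604, 0.0204 and 0.0121 FPKM. Cumulus markers summed to 1.67 to 6.56 FPKM over 8 genes. Trophectoderm markers summed to 2870 to 9856 FPKM and epiblast markers to 361 to 892 FPKM in all embryos. In bESCs the sums were 101 to 302 FPKM for trophectoderm and 1042 to 1191 FPKM for epiblast. Their leukocyte sums were 16.1 to 19.9 FPKM and their cumulus sums 23.7 to 71.0 FPKM. Fibroblast markers summed to 70.8 to 72.5 FPKM in bESCs. In blastocysts that sum was 90.7 FPKM in DMSO replicate 3 and 6.10 to 24.5 FPKM in the other embryos. The part of feeder cells in the bESC levels was not tested. In whole embryos, fewer cells of a type and less RNA per cell cannot be told apart. DMSO replicate 3 stood apart from the other DMSO embryos, with 80.1 FPKM of LUM against 14 and 1.41, and counts are given without it where they rest on it.

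In the DMSO embryos the highest was IL18, a cytokine of the IL1 family, at 374, 579 and 154 FPKM in replicates 1, 2 and 3 (369 ± 213, SD, n = 3). IL6 followed at 62.8, 77.3 and 24.5 FPKM, with DMSO replicate 3 lowest for both. TNFRSF12A, the receptor of the TNF ligand TWEAK, had 37.2, 61.8 and 71.5 FPKM. The neutrophil chemokine CXCL5 had 43.8, 34.6 and 49.9 FPKM. IL1RN, the secreted antagonist of the IL1 receptor, had 30.6, 17.7 and 39.7 FPKM, and the death receptor TNFRSF21 had 24.3, 23.9 and 25.1 FPKM. CCL26, an eotaxin, had 12.1, 25.4 and 21.3 FPKM, and IL13RA1, a chain of the IL13 receptor, had 9.91, 11.4 and 4.86 FPKM. These were the 8 members with the highest mean over the 6 embryos of the first table.

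The second experiment held much the same set. Its LY_DMSO embryos 1 and 2 had IL18 at 61.1 and 184 FPKM, IL6 at 39.3 and 128, IL1RN at 52.3 and 62.6, and TNFRSF12A at 35.9 and 60.0. TNFRSF21 was at 26.3 and 13.6 FPKM. The 2 control embryos differed widely in chemokines. LY_DMSO replicate 1 had 2.16 FPKM of CCL17, 9.27 of CXCL5 and 1.48 of CXCL16, against 31.0, 43.5 and 10.4 in replicate 2. CCL17 and CXCL16 took the places of CCL26 and IL13RA1 among the 8 highest. Of the members above 0.5 FPKM, 41 were shared by both blastocyst tables, 83.7% of the first list and 87.2% of the second.

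Ligands and their receptors were often unequal in level in the blastocyst. IL18 was the highest member while its receptor chain IL18R1 was between 0 and 0.225 FPKM in all 12 embryos and IL18RAP had 1 read in each of 2 embryos. The decoy IL18BP, which binds secreted IL18, had 2.86 to 13.7 FPKM. IL6 was accompanied by both parts of its receptor, IL6R at 5.26 to 13.9 FPKM and the signalling chain IL6ST at 3.37 to 12.2 FPKM. CXCR1 and CXCR2, the receptors of CXCL5, did not exceed 0.779 and 0.288 FPKM. CXCL8, a ligand of CXCR1, stayed between 0 and 0.492 FPKM. For CCL26 the receptor is CCR3, which had at most 2 reads in an embryo. CCL25, a ligand of CCR9, had 3.32 to 13.3 FPKM, and CCR9 had no read in a blastocyst. IL1R1, which IL1RN blocks, had 0.106 to 0.876 FPKM, IL1A 0 to 5.11 and IL1B 0 to 0.671. Of the TWEAK pair the receptor TNFRSF12A exceeded its ligand TNFSF12 (0.445 to 9.79 FPKM) in every embryo. IL7, IL15 and TNFSF10 did not exceed 1.06, 0.414 and 0.204 FPKM, and TNFRSF1A, the main TNF receptor, did not exceed 0.734.

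**Figure D1:**
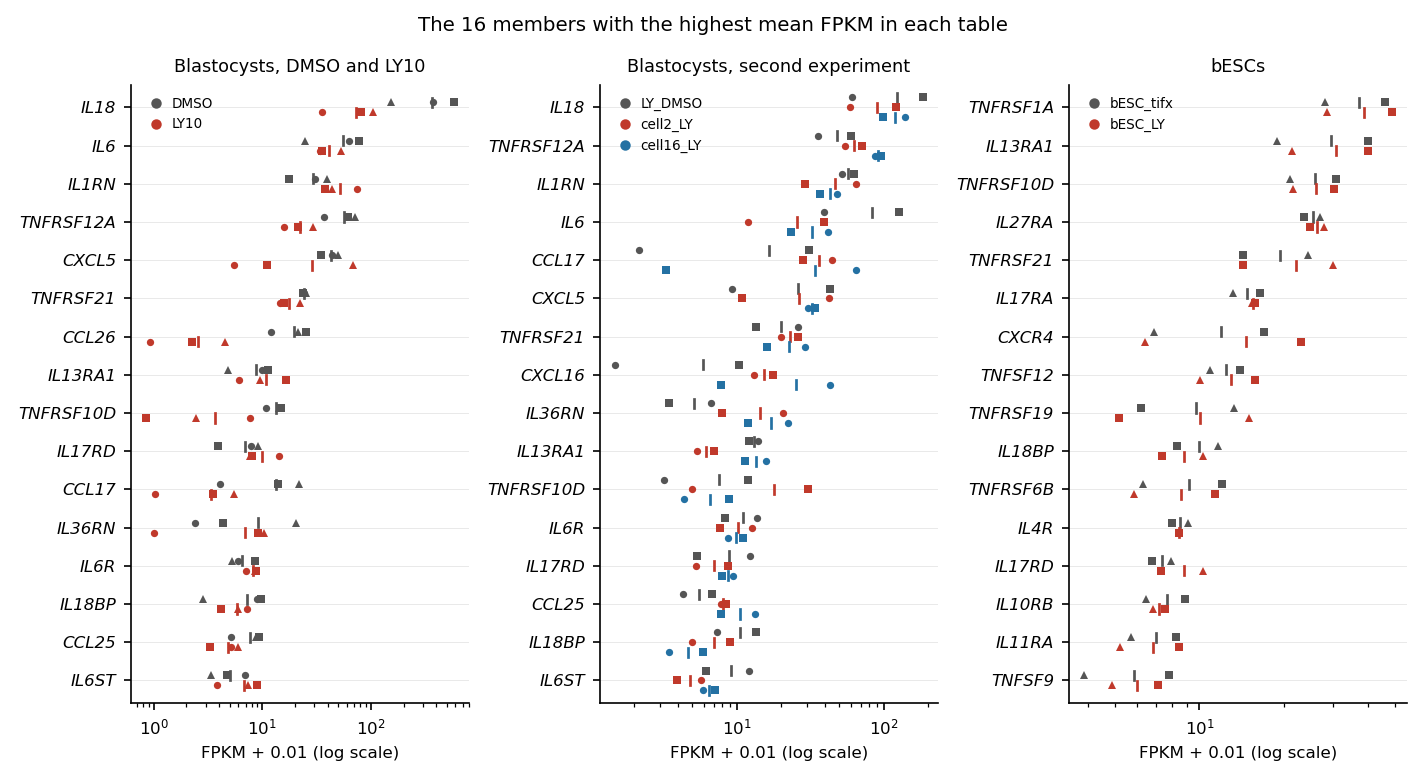
FPKM + 0.01 on a log axis for the 16 members with the highest mean in each table. Circles, squares and triangles are replicates 1, 2 and 3, colours are groups and vertical ticks are group means. IL18 leads both blastocyst tables, with 374, 579 and 154 FPKM in DMSO embryos, and is absent from the bESC panel, which TNFRSF1A leads.

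bESCs carried a partly different set. The 8 highest members were TNFRSF1A, IL13RA1, the decoy receptor TNFRSF10D, IL27RA, TNFRSF21, IL17RA, CXCR4 and TNFSF12. TNFRSF1A was at 46.2 and 28.1 FPKM in bESC_tifx 2 and 3, where no blastocyst exceeded 0.734. IL27RA was at 23.7 and 27.0 FPKM, and CXCR4, the receptor of CXCL12, was at 17.0 and 6.86 with CXCL12 itself at 2.90 and 2.95. Conversely IL6 was at 0.333 and 0.0563 FPKM. Of the blastocyst and bESC lists above 0.5 FPKM, 27 members were shared between the first blastocyst table (55.1% of it) and the bESC table (54.0%), and 23 by all 3. Among the 22 members above that level in the first blastocyst table and not in bESCs were IL18, IL6, IL1RN, IL36RN, CCL1, CCL17, CCL22, CCL26, CXCL16, IL2RG and TNFRSF9. IL32 and IL15RA were not in the bESC list of names. The tables were scaled separately and bESC libraries were made from bulk RNA with another annotation, so these levels stand side by side without a test.

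The first comparison asked how day 8 blastocysts differed after LY from the 2-cell stage. Of 52 members tested, 15 were lower at an unadjusted p under 0.05 and a log2 fold change beyond 1, against 8.51% of all 14249 genes, and 0 were higher, against 6.20% of all genes. The lower members included the chemokines CCL26, CCL1 and CCL17, IL18, the TNF receptors TNFRSF12A, TNFRSF10D, TNFRSF9 and TNFRSF1B, and the receptor chains IL2RG, IL17RA and CXCR4. The median log2 fold change was -0.71 over the members and -0.05 over all tested genes, and 37 of 52 members (71.2%) were negative against 52.6% of all genes. No member passed Benjamini-Hochberg adjustment over all genes in limma or with voom weights. That was reached by 0.0140% of all genes in limma, and the smallest adjusted p of a member was 0.0783, for CCL26. At an unadjusted p under 0.05 alone there were 15 members by limma and 9 by voom. The groups did not overlap for 13 members that were lower (14.4% of all genes) and 1 that was higher (13.8% of all genes).

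Among CC ligands, 3 of 5 tested fell. CCL26, an eosinophil attractant, had 12.1, 25.4 and 21.3 FPKM in DMSO replicates 1, 2 and 3 and 0.916, 2.25 and 4.52 FPKM in LY10 replicates 1, 2 and 3. All LY10 embryos lay below all DMSO embryos, and the log2 fold change was -3.05 ± 0.61 (SE, adjusted p = 0.0783), 8.31-fold lower. CCL1, a ligand of CCR8, had 5.8, 17.1 and 7.03 FPKM in DMSO and 1.75, 0.157 and 0.605 in LY10. These groups did not overlap either (log2 fold change -3.65 ± 0.83, adjusted p = 0.0786), and the LY10 embryos held 17 reads together. CCL17, a ligand of CCR4, had 4.03, 14 and 21.9 FPKM in DMSO and 1.01, 3.48 and 5.53 in LY10. DMSO replicate 1 lay within the LY10 range (-1.91 ± 0.81, adjusted p = 0.205). CCL25 had 5.09, 9.37 and 8.72 FPKM in DMSO and 5.13, 3.32 and 5.98 in LY10 and was not called.

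All 5 tested CXC ligands had negative values and none was called. CXCL5 had 43.8, 34.6 and 49.9 FPKM in DMSO and 5.42, 11.0 and 69.2 in LY10. LY10 replicate 3 was above every DMSO embryo, and the other two LY10 embryos were below them. CXCL16, the ligand of CXCR6, had 12.8, 2.38 and 7.0 FPKM in DMSO and 2.08, 2.43 and 7.79 in LY10. CXCL13 was at 0 in DMSO replicate 3 and at 4.43 and 3.56 FPKM in the other DMSO embryos. Of the chemokine receptors, CCR4 fell from 0.428, 1.02 and 0.441 FPKM to 0.110, 0.234 and 0.261 without overlap (-1.54 ± 0.62, adjusted p = 0.188). CXCR4 had 30, 34 and 4 reads in DMSO and 0, 2 and 0 reads in LY10. Pooled by group, these reads gave a DMSO to LY10 ratio of 31.8 (95% range 8.46 to 268). That range reflects counting error alone and leaves out the spread between embryos. In limma CXCR4 fell by a log2 fold change of -3.64 ± 1.29 (adjusted p = 0.151). CXCR4 was called in 11 of the 13 alternatives in which it passed the filter, and not on log2(FPKM + 1) or with voom weights. Its ligand CXCL12 had 0.750, 0.469 and 0.0252 FPKM in DMSO and 0, 0.0309 and 0.372 in LY10. CCR8 had 0.265, 0.121 and 0.0769 FPKM in DMSO, within the spread of LY10.

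**Figure D2:**
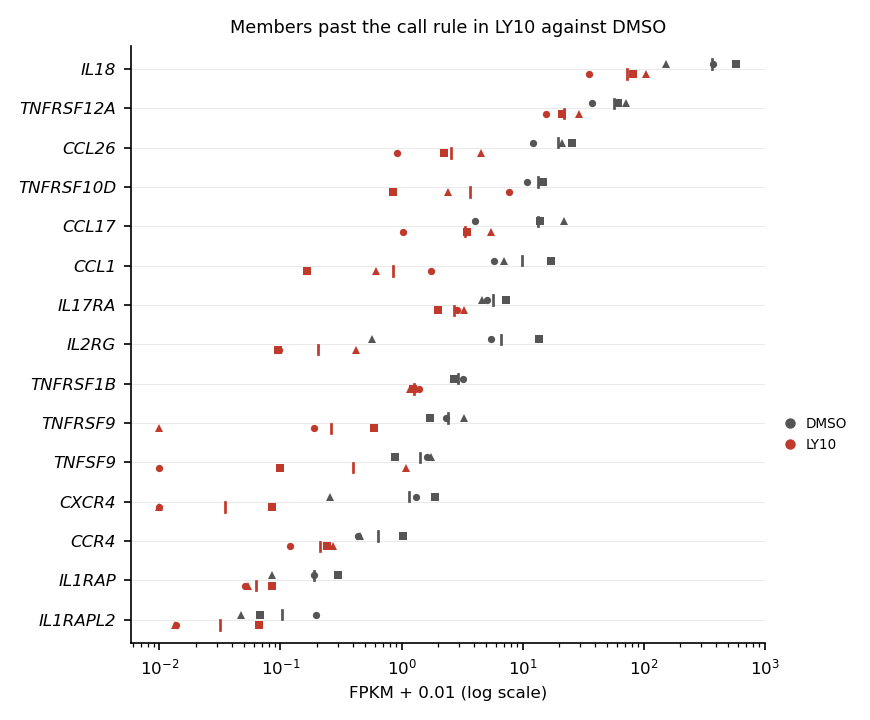
FPKM + 0.01 on a log axis for the 15 members past the call rule in LY10 (red) against DMSO (grey). Circles, squares and triangles are replicates 1, 2 and 3, and ticks are group means. The groups are apart for 12 of the 15, and overlap for CCL17, TNFSF9 and IL1RAPL2.

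Among interleukins, IL18 was the 1 of 7 tested that fell. It had 374, 579 and 154 FPKM in DMSO and 35.3, 81.1 and 104 FPKM in LY10, without overlap. The lowest DMSO embryo was replicate 3. The log2 fold change was -2.26 ± 0.53 (adjusted p = 0.0816), or 4.8-fold, with a mean of 369 ± 213 FPKM in DMSO and 73.6 ± 35.1 in LY10 (SD, n = 3 each). IL6 did not move with it: DMSO embryos had 62.8, 77.3 and 24.5 FPKM and LY10 embryos 34.3, 35.7 and 52.9, all within the DMSO range. IL1RN had 30.6, 17.7 and 39.7 FPKM in DMSO and 73.8, 37.5 and 43.8 in LY10 and was not called, with 2 of 3 LY10 embryos above every DMSO embryo. IL36RN, the IL36 receptor antagonist, ranged from 2.41 to 20.6 FPKM in DMSO and from 0.995 to 10.4 in LY10.

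Interleukin receptors were divided, with 10 negative and 9 positive values among 19 tested, 4 of them called lower. IL2RG, the chain shared by the receptors of IL2, IL4, IL7 and IL15, had 5.48, 13.7 and 0.557 FPKM in DMSO and 0.0867, 0.0853 and 0.412 in LY10. DMSO replicate 3 was close to the LY10 embryos, and the 3 LY10 embryos held 8 reads together (-4.04 ± 1.17, adjusted p = 0.105). IL17RA, the common IL17 receptor chain, fell from 5.11, 7.36 and 4.65 FPKM to 2.85, 2.01 and 3.26 without overlap (-1.07 ± 0.33, adjusted p = 0.118). IL1RAP, the IL1 coreceptor, and IL1RAPL2, a neuronal relative that is not a classic cytokine receptor, were called at levels under 0.3 FPKM. Other receptors at such levels were not called. IL13RA1 had 6.09, 16.6 and 9.43 FPKM in LY10, and IL17RD, an inhibitor of FGF signalling, had 7.93, 3.90 and 9.04 in DMSO against 14.2, 7.95 and 7.75 in LY10. IL6R had 5.93, 8.48 and 5.26 FPKM in DMSO and 7.06, 8.80 and 8.59 in LY10, and IL6ST had 6.92, 4.70 and 3.37 against 3.84, 8.92 and 7.37.

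In the TNF superfamily 4 of 8 receptors and 1 of 3 ligands fell. TNFRSF12A went from 37.2, 61.8 and 71.5 FPKM in DMSO to 15.7, 21.4 and 29.1 in LY10 without overlap (-1.36 ± 0.34, adjusted p = 0.0861). TNFRSF10D, a decoy receptor of the TRAIL system, went from 10.8, 14.8 and 14.3 FPKM to 7.72, 0.838 and 2.43, also without overlap (-2.38 ± 0.67, adjusted p = 0.0997). TNFRSF1B, the second TNF receptor, had 3.24, 2.70 and 2.80 FPKM in DMSO and 1.39, 1.23 and 1.17 in LY10 (-1.19 ± 0.32, adjusted p = 0.0959). It overlaps TNFRSF8 on the same strand, so reads in the shared stretch could be split between them. TNFRSF9 and TNFSF9, the 4-1BB receptor and its ligand, were both called. TNFRSF9 had 2.32, 1.72 and 3.27 FPKM in DMSO and 0.181, 0.578 and 0 in LY10 (-3.46 ± 0.99, adjusted p = 0.103). TNFSF9 had 1.61, 0.877 and 1.74 FPKM in DMSO and 0, 0.0886 and 1.08 in LY10, where replicate 3 lay within the DMSO range (-2.89 ± 1.19, adjusted p = 0.195). TNFRSF21 had 14.4, 15.9 and 22.2 FPKM in LY10 against 24.3, 23.9 and 25.1 in DMSO, apart but not called.

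Several members below the filter had no read in any LY10 embryo. CCL19 had 29 reads in DMSO embryos, at 0.686, 2.76 and 0 FPKM, and its receptor CCR7 had 29 reads, at 0.0339, 0.565 and 0.718 FPKM. Against a limit of 3 reads over the LY10 group each was at least 9.03-fold lower, by counting error alone. The same bound was 7.79-fold for IL27RA, 6.23-fold for IL15 and 5.61-fold for IL18R1. TNFSF13B was the reverse, with 14 reads in LY10 and 0 in DMSO, at least 4.99-fold higher. These genes were chosen for their zeros and carry no test, and the share of all genes at 0 in LY10 alone was not counted. Fewer genes were read in LY10 embryos 1, 2 and 3 (17871, 20455 and 18466) than in DMSO embryos (20490, 21563 and 22126). Reads on genes were 7905768, 15137567 and 8290129 in these LY10 embryos and 12767426, 10571309 and 10247618 in the DMSO embryos. The part of depth in the zeros and in the number of genes read was not tested. Without the filter the median log2 fold change was -0.33 over all genes.

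Calls in this comparison depended on single embryos. CCL26, CCL1, IL18, TNFRSF10D, TNFRSF12A and TNFRSF9 were called in every alternative in which they passed the filter. For CCL1 and TNFRSF9 this was 15 of 16. The count of lower members was 8 without DMSO replicate 2 and 15 without DMSO replicate 3, when 14.7% of all genes were lower and 3 members became higher (IL1RN, IL20RB and IL17RC). A higher member was also called when DMSO replicate 1 (TNFRSF8) or LY10 replicate 2 (IL1RN) was left out. CCL17 was not called without DMSO replicate 2 or 3 or LY10 replicate 1 or 2, CCR4 without DMSO replicate 2 or LY10 replicate 1 or 2, and IL17RA without DMSO replicate 2 or LY10 replicate 2. TNFSF9 was not called without any 1 of the DMSO embryos or of LY10 replicates 1 and 2, IL1RAP without DMSO replicate 1 or 2 or any LY10 embryo, and IL1RAPL2 without DMSO replicate 1 or 2 or LY10 replicate 1 or 3. Summed fibroblast markers were 24.4 to 90.7 FPKM in DMSO and 6.10 to 11.7 in LY10, and epiblast markers 385 to 535 and 582 to 892 FPKM, both apart, with 3 to 5 of 7 and 5 of 6 genes above 0.5 FPKM. Leukocyte sums were 4.08 to 5.49 FPKM in DMSO and 2.49 to 4.8 in LY10, with PTPRC at 0 in 5 of these 6 embryos. Hypoblast sums overlapped, at 73.5 to 114 FPKM in DMSO and 76.8 to 118 in LY10, while single hypoblast markers were apart in both directions. PDGFRA had 2.36, 0.526 and 4.26 FPKM in DMSO and 10.6, 47.1 and 26.0 in LY10, and HNF4A in LY10 also lay above DMSO. GATA6 had 107, 91.3 and 64.8 FPKM in DMSO against 57.3, 46.2 and 52.6 in LY10. GATA4 lay below DMSO too but was near 0, at 0.0909, 0.133 and 0.137 FPKM in DMSO and 0.0798, 0.0448 and 0.0433 in LY10. The part of the fibroblast, epiblast and hypoblast markers in the members' differences was not tested.

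Genes of the signalling pathways were counted beside the members. Of 28 NF-κB pathway genes tested, 2 were lower (NFKBIZ and TRAF5) and 1 higher (IKBKG, a subunit of the IκB kinase), with a median log2 fold change of -0.10. These shares, 7.14% and 3.57%, stand beside 8.51% and 6.20% of all genes, and TRAF5 was not called without DMSO replicate 2 or LY10 replicate 2 or 3. Of 17 gp130 and JAK-STAT genes 0 were lower and 1 was higher, with a median of -0.19. That gene was STAT3, the main transducer of gp130, with 164, 69.6 and 102 normalized counts in DMSO and 220, 819 and 701 in LY10 (2.24 ± 0.53, adjusted p = 0.0818). Of 7 cytokine genes with other kinds of names CD40, a TNF receptor relative, fell (-1.88 ± 0.73, adjusted p = 0.179), and the median was -0.95. CD40 was not called without DMSO replicate 1 or 2 or LY10 replicate 1 or 3.

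The second experiment repeated LY from the 2-cell stage with other embryos, and there fewer members were lower. Of 54 members tested in cell2_LY against LY_DMSO, 2 were lower, against 8.34% of all 14529 genes, and 7 were higher, against 8.71%. IL6 and IL13RA1 were lower, and TNFSF9, IL15RA, IL11RA, CCR4, IL17RA, IL36RN and IL32 were higher. The median was 0.21 over the members and 0.00 over all genes, and the members' median moved to 0.05 when LY_DMSO replicate 1 was left out and to 0.77 when replicate 2 was. No member passed adjustment in limma, which 0.0138% of all genes did, or with voom weights. Unadjusted, 10 members by limma and 8 by voom had a p under 0.05, and the smallest adjusted p was 0.0711.

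TNFSF9, the 4-1BB ligand, had 0.599 and 0.512 FPKM in LY_DMSO replicates 1 and 2 and 3.70 and 5.31 FPKM in cell2_LY replicates 1 and 2. The groups did not overlap (2.93 ± 0.47, adjusted p = 0.0711), a 7.63-fold difference. IL15RA, which presents IL15 to neighbouring cells, rose from 0.136 and 0.0412 FPKM to 1.68 and 0.967 (3.96 ± 0.65, adjusted p = 0.0711). IL11RA, which pairs with gp130, rose from 1.26 and 2.36 FPKM to 9.96 and 4.46 (1.93 ± 0.52, adjusted p = 0.0927). It ends 62 bases from CCL27 on the other strand, and the counting was not stated to use strand. CCR4 rose from 0.0522 and 0.139 FPKM to 0.564 and 0.788 (2.82 ± 0.84, adjusted p = 0.104). IL17RA rose from 2.80 and 2.40 FPKM to 7.23 and 3.83 (1.02 ± 0.40, adjusted p = 0.166), and IL36RN from 6.69 and 3.49 to 20.8 and 7.96 (1.41 ± 0.56, adjusted p = 0.169). IL32 rose from 0.321 and 0.107 FPKM to 1.3 and 0.758 (2.18 ± 0.89, adjusted p = 0.179), on 12 reads in the controls. In all 7 of these genes both treated embryos lay above both controls. Of the 54 members 16 were apart in that direction and 6 in the other. The share of all genes apart in this way was not counted, so the separation is a description.

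The lower members were IL13RA1 and IL6. IL13RA1 fell from 14.1 and 12.2 FPKM to 5.40 and 7.01 without overlap (-1.09 ± 0.30, adjusted p = 0.0952). IL6 had 39.3 and 128 FPKM in LY_DMSO and 12.0 and 39.3 in cell2_LY (-1.70 ± 0.67, adjusted p = 0.168). Its higher treated embryo reached the level of the lower control. IL18 had 59.3 and 121 FPKM in cell2_LY, within the control range of 61.1 and 184 but for the lower embryo, and was not called. TNFRSF12A was at 54.7 and 71.0 FPKM, IL1RN at 64.7 and 29.4, CXCL5 at 42.3 and 10.9, and CCL17 at 44.3 and 28.5, all overlapping their controls. CXCL16 was at 13.2 and 17.6 FPKM, above both controls and uncalled, and so were CCL25 at 7.84 and 8.44 and TNFSF12 at 9.79 and 4.44. IL6ST was at 5.70 and 3.95 FPKM against 12.2 and 6.20.

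**Figure D3:**
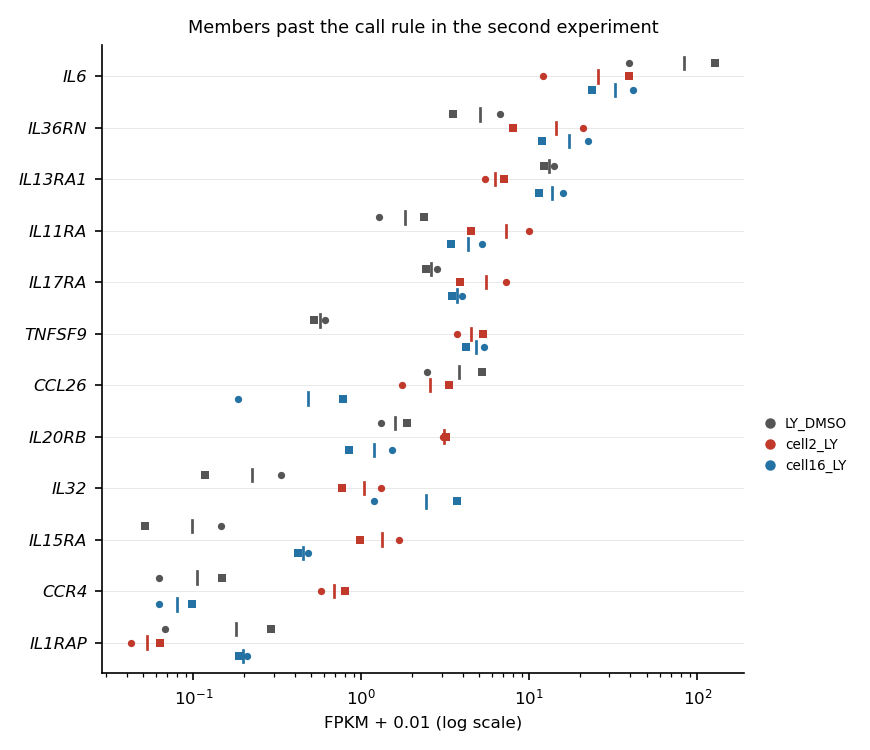
FPKM + 0.01 on a log axis for the 12 members past the call rule in any comparison of LY_DMSO (grey), cell2_LY (red) and cell16_LY (blue). Circles and squares are replicates 1 and 2, and ticks are group means. TNFSF9 is at 0.599 and 0.512 FPKM in the controls and between 3.70 and 5.38 in the 4 treated embryos.

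Here too calls rested on single embryos. TNFSF9 and IL15RA were called in every alternative. The lower members numbered 6 without LY_DMSO replicate 1, 4 without either cell2_LY replicate, and 2 without LY_DMSO replicate 2, when IL6 was no longer among those called. Without cell2_LY replicate 1 IL6, IL36RN, IL11RA, IL13RA1, IL17RA and IL32 were not called, and without cell2_LY replicate 2 CCR4 and IL32 were not. IL13RA1 and IL17RA also needed LY_DMSO replicate 1, and IL36RN, IL17RA and IL32 LY_DMSO replicate 2, while IL17RA and IL32 were not called either when 1 cell16_LY embryo left the shared fit. The higher members numbered 4 without cell2_LY replicate 1, the library in which the authors' library size was 1.23 times its reads on genes, against 0.949 to 1.04 in the other 5. When reads on genes set the scale, the median of all genes rose to 0.24 and that of the members to 0.47. Genes called higher were then 1842 against 674 lower, where the authors' scale gave 1265 and 1211, and the members counted 1 lower and 7 higher. Some marker sums were apart in cell2_LY. Trophectoderm markers summed to 5564 and 8061 FPKM against 5327 and 4362 in LY_DMSO, with CDX2 at 3.87 and 3.49 against 0.410 and 0.591. Epiblast markers summed to 494 and 361 FPKM against 660 and 511, below the controls where LY10 was above its own. These epiblast sums rest on different genes. In cell2_LY DPPA3 was apart, at 83.8 and 59.4 FPKM against 197 and 230, while POU5F1 at 364 and 293 overlapped its controls. In LY10 POU5F1 was apart, at 481, 611 and 328 FPKM against 246, 184 and 164, while DPPA3 overlapped. Summed leukocyte markers were 5.35 and 12.0 FPKM in cell2_LY and 4.33 and 5.28 in LY_DMSO, with 2 of 10 genes above 0.5 FPKM in both cell2_LY embryos and 3 of 10 in both LY_DMSO embryos. PTPRC was at 0 in both cell2_LY embryos and at 0.604 FPKM in LY_DMSO replicate 1. The part of the trophectoderm, epiblast and leukocyte markers in the members' differences was not tested.

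Of 28 NF-κB pathway genes tested in cell2_LY, 6 were higher and 0 lower, beside the 8.71% and 8.34% of all genes, and their median log2 fold change was 0.66. They were the transcription factor genes NFKB1 (1.23 ± 0.32), NFKB2 (1.12 ± 0.37) and RELB (1.91 ± 0.66), and TRAF2 (2.52 ± 0.73), TRAF3 (1.62 ± 0.51) and IRAK1 (1.55 ± 0.57), adaptors and a kinase of TNF and IL1 receptors. RELB had 21.3 and 23.1 normalized counts in LY_DMSO and 122 and 60.2 in cell2_LY. Without cell2_LY replicate 1 NFKB1 alone of these 6 was called. TRAF2 and IRAK1 were not called without LY_DMSO replicate 2 either, nor NFKB2 and RELB without LY_DMSO replicate 1, nor STAT3 without LY_DMSO replicate 1 or cell2_LY replicate 2. LIFR was not called without LY_DMSO replicate 2, either cell2_LY embryo or cell16_LY replicate 1, CLCF1 without LY_DMSO replicate 2 or cell2_LY replicate 1, CISH without LY_DMSO replicate 1 or cell2_LY replicate 1, and SOCS2 without LY_DMSO replicate 2 or cell2_LY replicate 2. Of 18 gp130 and JAK-STAT genes 3 were lower (LIFR, PIAS1 and STAT3) and 3 higher (CLCF1, SOCS2 and CISH), with a median of -0.24. STAT3 had 1566 and 669 normalized counts in LY_DMSO and 672 and 210 in cell2_LY (-1.44 ± 0.59, adjusted p = 0.177). Of 9 cytokine genes named otherwise NGFR was higher (2.12 ± 0.68, adjusted p = 0.118), and the median was 0.25. NGFR was not called without cell2_LY replicate 1.

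The 2 experiments with LY from the 2-cell stage share no embryo, so their values can be set against each other. Of 48 members tested in both, 20 (41.7%) had the same sign, and of all 12754 genes tested in both by the same NCBI Gene ID 47.9% had. Of the 14 members called lower in LY10 and tested again, 5 (35.7%) were negative in cell2_LY, where 57.2% of the 894 genes of that kind were. Called in both were 3 members, TNFSF9, CCR4 and IL17RA, and all 3 were lower in LY10 and higher in cell2_LY. Over all genes 321 were called in both, 34.9% of them in the same direction. The experiments differ in control group and may differ in concentration, and their difference was not tested.

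**Figure D4:**
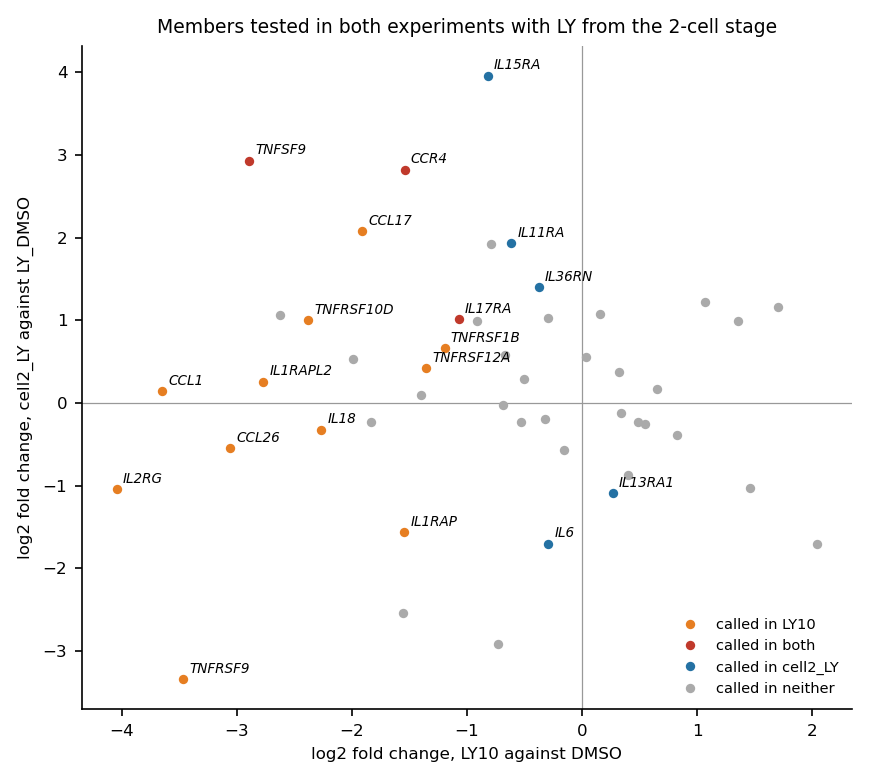
Log2 fold changes of the 48 members tested in both experiments, LY10 against DMSO on the x axis and cell2_LY against LY_DMSO on the y axis. Points are coloured by the comparison in which they were called, and TNFSF9, CCR4 and IL17RA, called in both, lie at upper left.

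Other members called in LY10 were not called in cell2_LY. CCL26 had 2.43 and 5.2 FPKM in LY_DMSO and 1.74 and 3.33 in cell2_LY, and its level in these controls was already below the 12.1 to 25.4 FPKM of the DMSO embryos. CCL1 had 0.151 and 3.17 FPKM in LY_DMSO and 0.267 and 2.57 in cell2_LY. IL2RG was at 0.206 and 1.89 FPKM in LY_DMSO and 0.388 and 0.219 in cell2_LY. CXCR4 had no read in LY_DMSO or cell2_LY. CCL19, without a read in LY10, had none in cell2_LY either, against 26 reads in LY_DMSO, at least 7.74-fold lower by the limit of 3 reads over the group. CXCL12 had 34 reads in LY_DMSO and none in cell2_LY, at least 10.1-fold lower. TNFRSF9 had 2.10 and 6.30 FPKM in LY_DMSO and 0 and 2.83 in cell2_LY and was uncalled. TNFRSF10D had 3.20 and 11.9 FPKM in controls and 4.97 and 30.8 in cell2_LY. In that gene and in CCL1 the 2 embryos of each group differed more than the groups did.

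LY from the 16-cell stage was compared with the same LY_DMSO embryos. Of 54 members 1 was lower in cell16_LY, against 1.97% of all genes, and 5 were higher, against 3.25%. The lower one was CCL26, and the higher ones were TNFSF9, IL32, IL15RA, IL36RN and IL11RA. The median was 0.20 over members and -0.01 over all genes. It rested on single controls, at -0.29 over the members without LY_DMSO replicate 1, when 30 of 54 were negative, and at 0.69 without LY_DMSO replicate 2. After adjustment 0 members passed in limma and with voom weights, as did 0% of all genes in limma. The count at an unadjusted p under 0.05 was 8 by limma and 7 by voom.

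CCL26 had 0.174 and 0.766 FPKM in cell16_LY against 2.43 and 5.2 in LY_DMSO, on 9 reads in the treated embryos (-2.93 ± 0.93, adjusted p = 0.559). TNFSF9 had 5.38 and 4.20 FPKM against 0.599 and 0.512 (3.03 ± 0.47, adjusted p = 0.206). TNFSF9 was called in every alternative, at 1.89 to 3.21. IL32 had 1.18 and 3.68 FPKM against 0.321 and 0.107 (3.22 ± 0.89, adjusted p = 0.525). IL15RA had 0.474 and 0.409 FPKM against 0.136 and 0.0412 (2.44 ± 0.65, adjusted p = 0.521). IL36RN had 22.5 and 11.9 FPKM against 6.69 and 3.49 (1.75 ± 0.56, adjusted p = 0.559), and IL11RA had 5.24 and 3.42 against 1.26 and 2.36 (1.28 ± 0.52, adjusted p = 0.62). The 4 treated and control embryos did not overlap in any of these 6 genes. Of the 54 members 11 were apart and higher and 6 apart and lower, and the share of all genes was not counted. Marker sums apart from LY_DMSO were trophectoderm (6787 and 5642 FPKM against 5327 and 4362), epiblast (371 and 457 against 660 and 511, with 5 of 6 genes above 0.5 FPKM in each embryo) and fibroblast (11.1 and 9.72 against 11.8 and 17.6), and their part in the members' differences was not tested. The same controls enter the values of cell2_LY, so the 2 comparisons are not independent of each other.

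The members with the highest levels were not called in cell16_LY. IL18 had 140 and 99.4 FPKM, IL6 41.6 and 23.5, IL1RN 48.5 and 37.2, CXCL5 30.8 and 34.2, and CCL17 65.2 and 3.33. TNFRSF12A had 87.1 and 96.0 FPKM, above both controls, with a log2 fold change under the threshold. CXCR4 had 23 and 16 reads in cell16_LY and 0 in LY_DMSO, at least 14.5-fold higher against the limit of 3 reads over the group, and was below the filter. Without LY_DMSO replicate 2 the counts were 0 lower and 11 higher. They were 4 lower and 5 higher without LY_DMSO replicate 1, 0 and 4 without cell16_LY replicate 1, 1 and 8 without cell16_LY replicate 2, and 2 and 5 without cell2_LY replicate 2. CCL26 and IL36RN were not called without LY_DMSO replicate 2 or cell16_LY replicate 1, IL11RA without LY_DMSO replicate 1 or cell16_LY replicate 1, and IL32 without cell16_LY replicate 2. Of 28 NF-κB genes 0 were called in either direction (median 0.19). Of 18 gp130 and JAK-STAT genes SOCS1 and STAT5B were lower and SOCS2 higher (median -0.04), and of 9 genes named otherwise NGFR was higher (median 0.15). SOCS1 was not called without any 1 of the 4 compared embryos, STAT5B without LY_DMSO replicate 2 or cell16_LY replicate 1, SOCS2 without LY_DMSO replicate 2 or cell16_LY replicate 2, and NGFR without LY_DMSO replicate 1 or 2 or cell16_LY replicate 1.

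Set directly against cell2_LY, cell16_LY embryos had 4 members lower, against 5.77% of all genes, and 2 higher, against 5.58%. CCR4 had 0.0524 and 0.0877 FPKM in cell16_LY and 0.564 and 0.788 in cell2_LY (-3.13 ± 0.84, adjusted p = 0.193). It was the 1 call of these 6 kept in every alternative in which the gene passed the filter, 16 of 18. IL20RB, a chain of the IL20 and IL24 receptors, had 1.52 and 0.832 FPKM against 3.04 and 3.18 (-1.44 ± 0.55, adjusted p = 0.241). IL15RA (-1.52 ± 0.65, adjusted p = 0.27) and CCL26 (-2.38 ± 0.93, adjusted p = 0.247) were lower too. IL13RA1 had 15.8 and 11.5 FPKM against 5.40 and 7.01 (1.13 ± 0.30, adjusted p = 0.193), at the level of the controls. IL1RAP had 0.20 and 0.178 FPKM against 0.0326 and 0.0530 (2.10 ± 0.81, adjusted p = 0.243). The groups did not overlap in any of the 6 genes. Of the 54 members 9 were apart and lower and 7 apart and higher, and the share of all genes was not counted. No member and 0% of all genes passed adjustment in limma, and 6 members by limma and 4 by voom had an unadjusted p under 0.05. Without cell16_LY replicate 1 the 2 higher members were no longer called, 4 were higher without cell2_LY replicate 2, 1 was higher without cell16_LY replicate 2, and 2 were lower without cell2_LY replicate 2 or cell16_LY replicate 2. IL15RA was not called without any 1 of the 4 embryos, IL20RB without cell2_LY replicate 1 or 2 or cell16_LY replicate 2, IL1RAP without cell2_LY replicate 1 or cell16_LY replicate 1 or 2, CCL26 without cell2_LY replicate 2 or cell16_LY replicate 1, and IL13RA1 without cell2_LY replicate 1 or cell16_LY replicate 1. RELB, BCL3 and IKBKB of the NF-κB list were lower in cell16_LY than in cell2_LY, 3 of 28, with 0 higher and a median of -0.43. Of 18 gp130 and JAK-STAT genes 1 was lower (SOCS1) and 1 higher (LIFR), with a median of 0.13, and of 9 named otherwise 0 were called (median -0.12). RELB, BCL3 and IKBKB were each not called without cell2_LY replicate 1 or cell16_LY replicate 1, LIFR without any 1 of the 4 compared embryos, and SOCS1 without any 1 of the 6 in the fit.

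In bESCs no member was called after LY with all 4 libraries, and IL2RG was called higher without bESC_tifx replicate 3. With the culture number as a block 1 member, IL2RG, was higher, against 0.431% of all genes, and without the filter CCR7 was higher. Of 59 tested 0 were lower and 0 higher, against 0.0375% of all 16012 genes in either direction, and 0 members and 0% of all genes passed adjustment in limma. None had an unadjusted p under 0.05 by limma or by voom. The median was 0.01 over the members and -0.01 over all genes. For 16 members the 95% confidence interval of the log2 fold change lay between -1 and 1. Among them were IL17RA (0.08, interval -0.38 to 0.55), IL27RA (0.06, -0.36 to 0.48), IL4R (-0.01, -0.44 to 0.42), IL6ST (-0.24, -0.73 to 0.26) and CXCL12 (-0.17, -0.71 to 0.36). For the others the interval reached past -1 or 1. In blastocysts such narrow intervals were found for 3, 1, 2 and 2 members in the order of the comparisons above.

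In bESCs the 2 culture numbers differed more than the groups with and without LY for several members. TNFRSF1A had 46.2 and 28.1 FPKM in bESC_tifx 2 and 3 and 48.7 and 28.6 in bESC_LY 2 and 3. CXCR4 had 17.0 and 6.86 against 23.0 and 6.39, and IL13RA1 40.1 and 18.9 against 39.9 and 21.5. TNFRSF21 went the other way, with 14.3 and 24.4 against 14.3 and 30.1, as did IL1A with 0.473 and 2.48 against 0.846 and 2.49. CXCL5 was at 5.44 and 0.127 FPKM in bESC_tifx and 4.19 and 0.0845 in bESC_LY. In the fit without the culture number this left it with an interval from -7.11 to 6.25. TNFRSF10D was at 30.8 and 21.1 against 30.4 and 21.7 FPKM, and TNFSF12 at 13.9 and 10.9 against 15.7 and 10.1. Among the ligands, IL23A was at 5.05 and 4.58 against 5.10 and 3.90 FPKM, CXCL14 at 2.03 and 3.79 against 2.31 and 3.73, and CCL25 at 2.49 and 4.41 against 2.31 and 6.32. TNFSF9 was at 7.79 and 3.85 against 7.09 and 4.86 FPKM and CCR4 at 0.633 and 1.71 against 0.584 and 1.60. Of the pathway lists 0 of 22 gp130 and JAK-STAT genes, 0 of 30 NF-κB genes and 0 of 15 named otherwise were called, with medians of -0.02, 0.04 and -0.01.

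**Figure D5:**
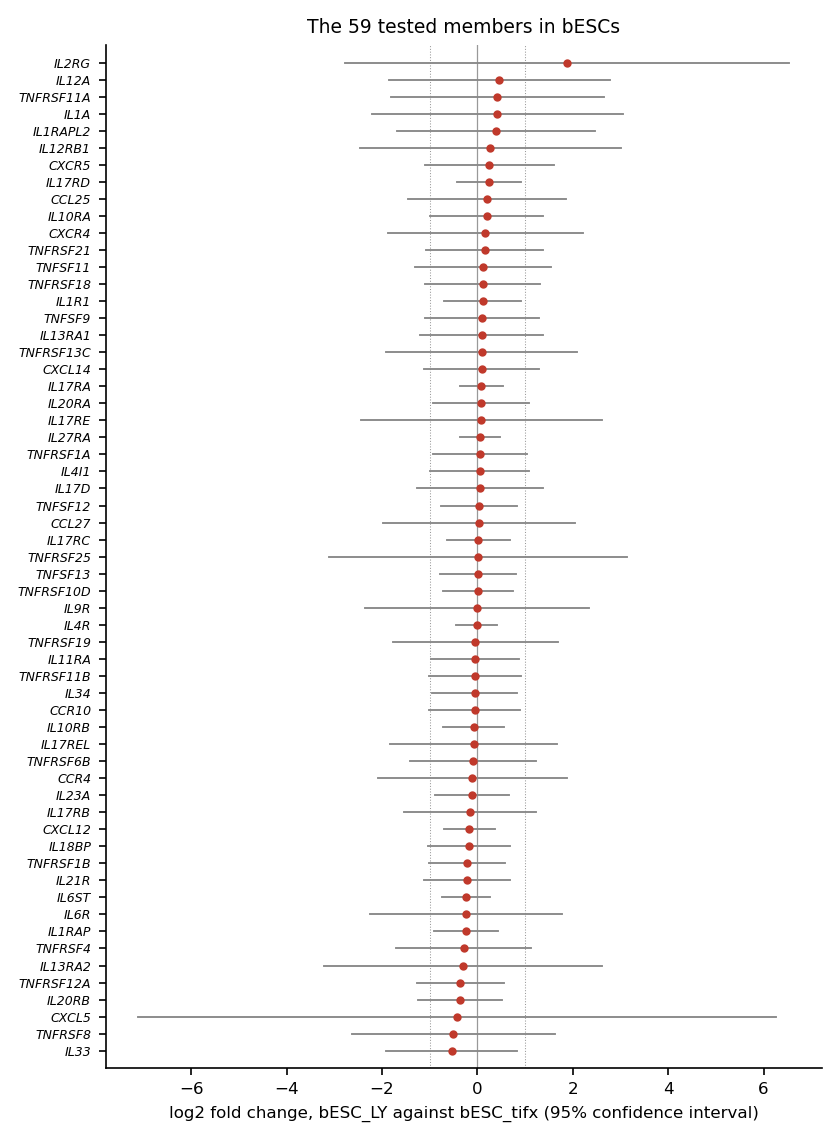
Log2 fold changes with 95% confidence intervals of the 59 members tested in bESC_LY against bESC_tifx, with dotted lines at -1 and 1. The fit had no block for the culture number. Every interval includes 0, and those of CXCL5 and IL2RG are the widest.

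The pooled SD within groups on the log2 scale had a median of 0.90 over the members and 0.51 over all tested genes in the first blastocyst table, 0.82 and 0.42 in the second, and 0.49 and 0.27 in bESCs. The members were also lower in level, with a median log2 level of 4.8 against 6.94 in the first table. Among genes with a mean log2 level of at least 6 the medians were 0.55 over 17 members and 0.38 over 8731 genes in the first table, 0.58 over 23 and 0.33 over 9833 in the second, and 0.35 over 42 and 0.23 over 12919 in bESCs. These are descriptions, without a test.

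Members that lie side by side in the genome did not always share a level. Positions are those of ARS-UCD2.0, from the blastocyst tables. CCL26 (chromosome 25, 34038495 to 34043066, reverse strand) and CCL24 (34065907 to 34069221), both ligands of CCR3, lie 22841 bases apart on 1 strand. CCL26 fell in LY10, where CCL24 had 0.161, 0.275 and 0.453 FPKM in DMSO and 0.565, 0.231 and 2.06 in LY10. CCL22 (chromosome 18, 25365289 to 25373329) and CCL17 (25420834 to 25423723), both ligands of CCR4, lie 47505 bases apart, and CCL22 had 0.0362, 0.556 and 2.14 FPKM in DMSO and 0.508, 0.50 and 0.664 in LY10. TNFRSF12A (chromosome 25, 2435936 to 2439695) and IL32 (2490659 to 2494939) lie 50964 bases apart. The IL1 cluster on chromosome 11 holds IL36RN (46752632 to 46756878) and IL1RN (46830420 to 46837406), the antagonists, which were read in every embryo. Of the agonists in this cluster, IL1A had 0 to 5.11 FPKM and IL1B at most 0.671. IL18 lies elsewhere, on chromosome 15 (22475965 to 22501512). The chemokines CXCL5 (chromosome 6, 88897012 to 88899130) and CXCL2, 47264 bases away, belong to a cluster of similar genes among which reads could be split.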

How the data were processed

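The authors deposited FPKM per gene and library for blastocysts and bESCs, in tables named as normalized counts. Per the labels, HISAT2 2.0.5, StringTie 1.3.3b, featureCounts 1.5.0-p3 and DESeq2 1.20.0 were used. The tables also hold the authors' fold changes and p-values, which were not used. FPKM multiplied by gene length gave whole reads for 100% of values within 0.02 reads. Reads were scaled from each library's size, as the authors used it, to the table's geometric mean size and are then called normalized counts. Gene positions equal those of RefSeq ARS-UCD2.0 for 98.8% of NCBI Gene IDs in the blastocyst tables. No sequences of members are shown.

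Tests used limma 3.58.1 under R 4.3.3 (lmFit, eBayes with a trend, two-sided) on log2(normalized count + 1) of genes averaging 10 or more, without covariates. Fold changes are on that scale, which understates the change of low genes, and ± after one is its standard error. LY_DMSO, cell2_LY and cell16_LY entered a common fit. A call, written as higher, lower, rose or fell, is an unadjusted p under 0.05 with an absolute log2 fold change above 1, and every adjusted p is a Benjamini-Hochberg value over all tested genes. The members, the lists and the rule for named genes were chosen with earlier results of these data known. The rule names all called members, the 8 members with the highest mean FPKM in each table, the 3 highest tested of each role, and a fixed set of textbook ligands and receptors. Any other member was picked out with its values in view. The code was tested on simulated data. The alternatives changed the pseudocount (0.5 or 5), the filter (none, or 50), the scaling (median-of-ratios, quantile, reads on genes), the scale (log2(FPKM + 1)), the weights (voom), the pairing (replicate block) and the samples (the compared groups only, or each library left out). Tables and figures used Python 3.11.15, numpy 2.4.6, pandas 2.3.3, scipy 1.17.1 and matplotlib 3.10.9.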

Additional observations from a re-analysis of the deposited data

Results flagged for a closer look

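For 7 genes the embryos treated with LY from the 2-cell stage lay apart from their controls in both experiments, in opposite directions. The difference between the experiments was not tested. The genes came from all members, and from pathway-list genes called in at least 1 of the 2 experiments. The share of all genes with this pattern was not counted. Of 321 genes called in both experiments 34.9% had the same direction, so opposite directions were not particular to these genes. Members among them were CCR4, with log2 fold changes of -1.54 in LY10 against DMSO and 2.82 in cell2_LY against LY_DMSO, IL17RA with -1.07 and 1.02, and TNFRSF1B with -1.19 and 0.66. From the pathway lists CISH, a feedback inhibitor of STAT5, had -1.54 and 3.19, and NFKBIZ had -1.70 and 0.59. TRAF3, a negative regulator of noncanonical NF-κB signalling, had -0.62 and 1.62, and PIAS1 had 0.78 and -1.40. TNFRSF1B and NFKBIZ were not called in cell2_LY, and CISH, TRAF3 and PIAS1 were not called in LY10. No group held the 4 samples that a search for single outlying samples needs.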

How the results depend on the processing

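No member called changed direction under an alternative. Calls were kept in 186 of 227 values for LY10, 118 of 150 for cell2_LY, 96 of 106 for cell16_LY and 78 of 103 for cell16_LY against cell2_LY. In LY10 the 15 lower of 52 members became 7 of 23 with a mean of at least 50 (6.18% of all genes), 8 on log2(FPKM + 1) and 9 with voom weights, and 8 to 15 with a library left out, while the 0 higher members became 1 without a filter, 2 with quantile normalization and 0 to 3 with a library left out. Quantile normalization also turned the split over all genes from 1213 lower and 884 higher to 879 and 1074. In cell2_LY the lower count of 2 became 11 of 128 without a filter (5.73% of all genes), 1 with reads on genes, 0 on log2(FPKM + 1) and 2 to 6 with a library left out, and the higher count of 7 became 12, 7, 4 and 4 to 9. In cell16_LY the lower count of 1 became 5 without a filter, 0 with a mean of at least 50, 2 with 2 groups only and 0 to 4 with a library left out, and the higher count of 5 became 11 without a filter, 3 on log2(FPKM + 1) and 4 to 11. Against cell2_LY the lower count of 4 became 0 with a mean of at least 50, 2 with quantile normalization, 1 on log2(FPKM + 1) and 2 to 4 with a library left out, and the higher count of 2 became 5 without a filter, 1 with a mean of at least 50, reads on genes, log2(FPKM + 1) or voom weights, and 0 to 4. With reads on genes, all genes split into 1261 lower and 421 higher there, against 839 and 810. In bESCs the higher count became 1 without a filter and 0 to 1 with a library left out. The 20 members of the same sign in both experiments became 49 without a filter and 6 with a mean of at least 50, since the number tested changed. Beyond that, the cause was not tested. A group left with 1 library is assumed to vary like the others.

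In blastocysts the replicate numbers were not shown to pair the samples. Deviations of same-numbered libraries correlated at -0.12, 0.17 and -0.10 in the first experiment. In 2 pairs each they correlated at 0.12 for cell2_LY, -0.23 for cell16_LY and -0.13 between them. In bESCs same-numbered libraries deviated together, at 0.79 in 2 pairs. The main bESC tests and intervals were fitted without the numbers and so include the difference between them. With a replicate block the counts were 14 lower and 0 higher in LY10, 2 and 6 in cell2_LY, 2 and 6 in cell16_LY, 4 and 2 between these, and 0 and 1 in bESCs, where 77 genes were lower and 69 higher against 6 and 6 without it. Crossed numbers, tried with the data in view, gave 2 and 7 in cell16_LY and 4 and 4 against cell2_LY. Depth limits the members with few reads, and 2 or 3 embryos a group limit the rest.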
